A study of Mus musculus with 6 samples.

Results

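The TNF superfamily, a family of signalling ligands and their receptors, was followed in bulge SCs of control mice and of mice with deletion of integrin-linked kinase (ILK-K5). Members were taken by symbol: every gene whose name is Tnfsf or Tnfrsf and a number, together with Tnf, Lta, Ltb, Ltbr, Fas, Fasl, Cd40, Cd40lg, Cd27, Cd70, Eda, Edar, Edaradd, Eda2r and Ngfr. This gave 47 of the 43274 genes in the table, namely 18 ligands, 27 receptors, the adaptor Edaradd and the antisense transcript Tnfsf13os. RNA came from CD34-positive, α6 integrin-high cells that had been FACS-sorted out of mouse skin on postnatal day 21, with 3 libraries per genotype. The study names these sorted cells bulge SCs, and the name stands here for the sort. Control mice carried a floxed Ilk allele beside a wild-type allele (ILK +/- in the labels), and ILK-K5 mice carried floxed alleles only (ILK -/- in the labels). Mice of both genotypes carried Cre under the keratin 5 promoter, which is active in basal keratinocytes of the epidermis as well as in hair follicles, and the study's methods name littermates as controls. The labels do not say whether each library came from its own animal, so that p-values measure the spread between these libraries only.

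TNF superfamily ligands act mostly as trimers, on the cell surface or after being cut from it by proteases such as Adam17. Receptors with a death domain can start caspase signalling through Tradd and Fadd, whereas the others, apart from decoy receptors, bind Traf adaptors. Both of these signalling kinds can lead to the transcription factor NF-kB. In skin, ectodysplasin (Eda) and its receptor Edar are required for the formation of hair follicles, while Tnf is an inflammatory cytokine made mainly by macrophages, but also by keratinocytes.

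The libraries held 8228019 to 11969072 reads on genes, so that 1 read was worth 0.726 to 1.52 normalized counts (reads divided by the size factor of the library). Values per library are given in the order of the replicates, 1 to 3. Ilk read 10.6, 16.7 and 38.5 normalized counts in the controls against 14.8, 30.9 and 29.2 in ILK-K5, and 76.7% of its exon bases are shared with Taf10 on the opposite strand, which leaves the count of Ilk unable to check the genotype. Basal keratinocyte markers summed to between 65953 and 108793 normalized counts in control and between 64545 and 80771 in ILK-K5 libraries. None of the 6 was called by limma, edgeR or DESeq2, and 1 had an unadjusted p under 0.05 (limma). Bulge markers summed to between 42883 and 106671 in control and between 19928 and 46421 in ILK-K5 libraries, and 1 of 6, Cd34, was lower in ILK-K5 (limma). Of the 5 tested markers of differentiated keratinocytes, 1, Lor, was lower (limma). The sum of macrophage markers was 219 to 373 in controls and 16779 to 23975 in ILK-K5. All 14 macrophage markers that could be tested, of 15, were higher in ILK-K5 (limma), and Fcgr1 had no read in any control library. General leukocyte markers summed to 30.4 to 87.1 in controls and 2197 to 3131 in ILK-K5 (4 of 4 higher), neutrophil markers to 31.9 to 50.2 and 217 to 294 (2 of 4 tested higher), and fibroblast markers to 703 to 779 and 1532 to 2493 (1 of 4 tested higher). The part of these markers in the differences between genotypes was not tested, and in bulk RNA fewer cells of a type and less RNA per cell cannot be told apart.

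Normalized counts were compared on the log2 scale after adding a pseudocount of 1, with limma, over the 16368 genes whose mean was 10 normalized counts or more. Of the 47 family genes, 25 reached this level (5 ligands, 19 receptors and Edaradd). Among these, 4 (Tnf, Tnfsf9, Tnfrsf1b and Tnfrsf13b) had a control mean below it and passed through the ILK-K5 libraries. At a Benjamini-Hochberg adjusted p of at most 0.05, 2 genes were higher in ILK-K5 libraries, Tnfrsf1b and Tnf. Of all tested genes, 2.93% were called higher and 3.53% in either direction. No family gene was called lower, beside 0.599% of all tested genes in limma, 0.532% in edgeR and 1.71% in DESeq2, and none had a negative log2 fold change at an unadjusted p under 0.05. A positive log2 fold change was found for 15 and a negative for 10, with a median of 0.49 in limma and 0.19 in DESeq2, where the median of all tested genes in limma was 0.0054. The 15 include the 4 genes that passed through the ILK-K5 libraries, for which the filter favoured a positive sign. The count and the median therefore do not measure a shift of the family. DESeq2 on the recovered reads called 4 genes higher, beside 4.72% of its genes, and added Tnfrsf13b and Ngfr. edgeR called 1, Tnfrsf1b, beside 2.58%.

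**Figure D1:**
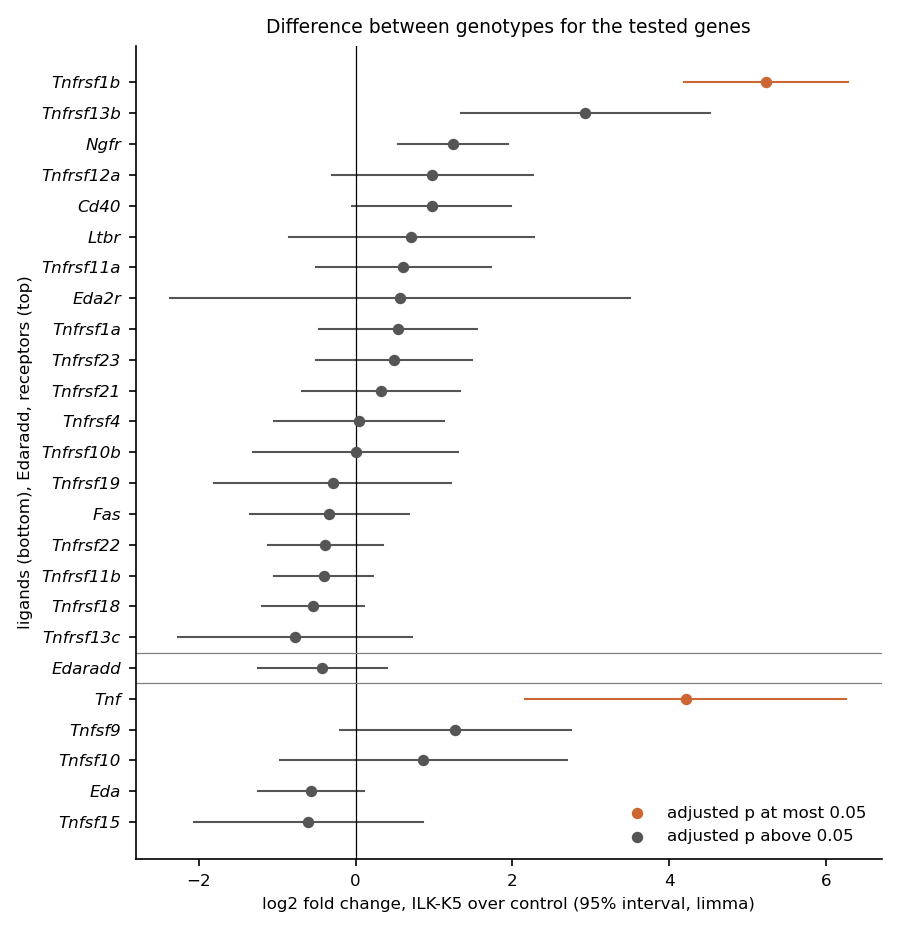
Log2 fold change of the 25 tested genes, ILK-K5 over control, with 95% intervals from limma, ligands at the bottom and receptors at the top. Tnfrsf1b at 5.24 and Tnf at 4.21, in orange, are the genes with an adjusted p of at most 0.05, and the intervals of Tnfrsf13b and Ngfr also lie above 0.

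Tnfrsf1b, the TNF receptor without a death domain that is abundant on leukocytes, showed the largest difference of the family. It read 11.6, 4.56 and 5.80 normalized counts in the controls and 277, 342 and 268 in the ILK-K5 libraries. Every ILK-K5 library was thus far above every control library, while the ILK-K5 libraries were close to each other. The mean rose from 7.31 ± 3.74 to 296 ± 40.8 (SD, n = 3), a log2 fold change of 5.24 (standard error 0.46, 95% interval 4.19 to 6.28, limma adjusted p = 3.77e-04). The call held in the 12 other settings and without any single library, where the adjusted p lay between 2.38e-04 and 0.00779 (limma). The gene spans chr4:145213463-145246870 on the minus strand of GRCm38, and none of its 3818 exon bases are shared with another gene.

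Tnf, the inflammatory ligand of this receptor, rose from near the limit of counting. Its reads numbered 7, 0 and 1 in the control libraries and 63, 43 and 34 in the ILK-K5 libraries, which corresponds to 6.75, 0 and 0.726 and to 71.7, 33.2 and 33.1 normalized counts. The genotypes did not overlap, and control library 1 held 7 of the 8 control reads. The log2 fold change was 4.21 (standard error 0.91, 95% interval 2.16 to 6.26, limma adjusted p = 0.0377), and the reads of the ILK-K5 libraries exceeded those of the controls 16.8-fold after scaling by size factors (95% counting interval 8.29 to 39.7). This interval and those below cover counting error only. The call was lost in edgeR (adjusted p = 0.0714) and with a pseudocount of 0.1 (0.109), and it depended on single libraries, with a limma adjusted p of 0.00729 without control library 1 and between 0.0692 and 0.194 without any other library. The sample descriptions end in the same digits for replicates 2 and 3 and in other digits for replicate 1, with no meaning given. Within replicates 2 and 3, both Tnf (log2 fold change 4.70, limma adjusted p = 0.0382) and Tnfrsf1b (5.63, limma adjusted p = 0.00182) were higher in ILK-K5, and replicate 1 holds only 1 library of each genotype.

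Tnfrsf1a, the death domain receptor of Tnf that most cell types carry, did not separate the genotypes. Its normalized counts were 278, 287 and 618 in control and 291, 757 and 691 in ILK-K5 libraries. Control library 3 lay among the ILK-K5 libraries and ILK-K5 library 1 among the controls (log2 fold change 0.54, 95% interval -0.47 to 1.55, limma adjusted p = 0.776). Per length of transcript, as FPKM, Tnfrsf1b stood at 0.0283, 0.0108 and 0.00637 of the level of Tnfrsf1a in control libraries and at 0.644, 0.307 and 0.263 in ILK-K5 libraries. This ratio did not overlap between genotypes, and its two-sided exact permutation p was 0.1, which is the smallest that 3 against 3 libraries allow (0.4 after adjustment over the 4 ratios computed). The lymphotoxins, the nearest relatives of Tnf, were barely detected. Lta had 1 read in the control and 4 reads in the ILK-K5 libraries, and Ltb had 0 and 2. Both lie beside Tnf on chromosome 17, at distances of 1.16 kb (Lta) and 3.06 kb (Ltb). Their shared receptor Ltbr read 13.5, 42.6 and 73.3 in control and 28.5, 91.0 and 75.0 in ILK-K5 libraries, which overlapped.

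**Figure D2:**
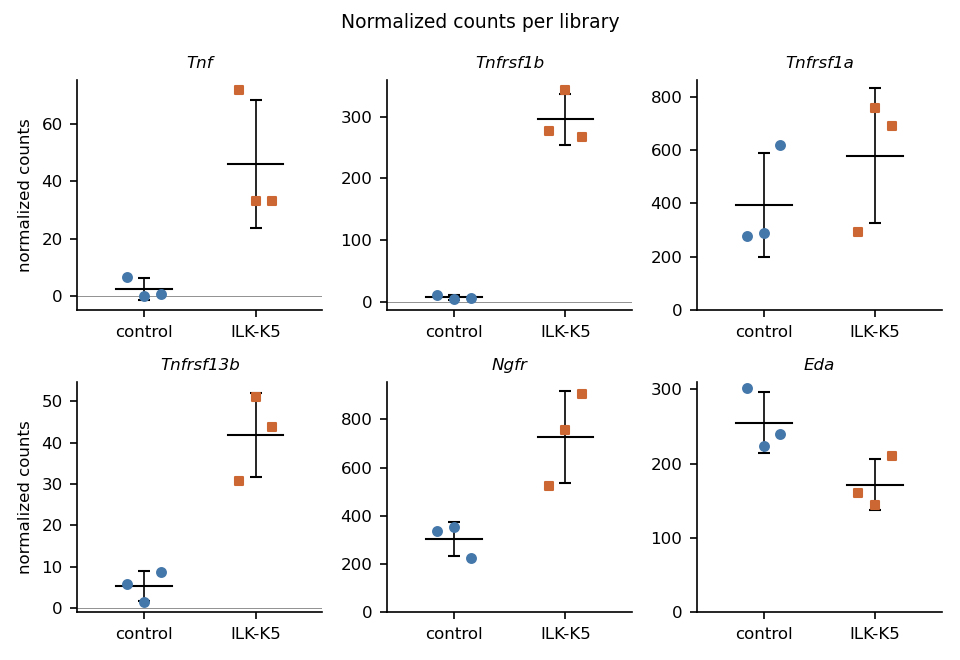
Normalized counts (points) with the mean and SD (lines) for 6 genes in control (circles) and ILK-K5 (squares) libraries, each on its own linear axis. The genotypes are apart for Tnf, Tnfrsf1b, Tnfrsf13b, Ngfr and, in the opposite direction, Eda, and they overlap for Tnfrsf1a.

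Tnfrsf13b, a receptor for the B cell survival ligands Tnfsf13 and Tnfsf13b, had the next largest log2 fold change after Tnfrsf1b and Tnf among the tested members. Its normalized counts were 5.79, 1.52 and 8.71 in control and 30.7, 50.9 and 43.8 in ILK-K5 libraries, with no overlap. The log2 fold change of 2.93 (standard error 0.70, 95% interval 1.35 to 4.52) missed the threshold in limma (adjusted p = 0.0593) and in edgeR (0.0709) and passed it in DESeq2 (0.00297). The limma adjusted p was 0.0447 without control library 3 and between 0.0646 and 0.323 without any other library. It was 0.102 within replicates 2 and 3 and 0.0260 with a term for the digits of the sample descriptions. A pseudocount of 5 gave 0.0368, one of 0.1 gave 0.0928, and FPKM gave 0.0384 (limma adjusted p). The ligand Tnfsf13b (BAFF) was below the level for testing, with 2, 0 and 1 reads in control and 6, 16 and 7 in ILK-K5 libraries, a ratio of 9.28 with a counting interval of 2.88 to 47.6. Tnfsf13 had no control read and 2 reads in ILK-K5 libraries, and 60.0% of its exon bases belong also to the fusion gene Tnfsfm13. Tnfrsf13c, the receptor for Tnfsf13b alone, read 69.5, 24.3 and 17.4 in control and 27.3, 11.6 and 17.5 in ILK-K5 libraries (log2 fold change -0.77, limma adjusted p = 0.782), and Tnfrsf17 had 1 read in all. B cell markers summed to 21.3 to 65.6 normalized counts in control and 10.7 to 25.05 in ILK-K5 libraries. Of these 4 markers, 1 could be tested and was not called (limma). At most 3 reads in every library of the genotype were found for 2 of them in control and for 2 in ILK-K5.

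The 250 bases before the start of Tnf, Tnfrsf1b and Tnfrsf13b are shown because these genes had the largest positive fold changes among the tested members. They are from RefSeq for GRCm38.p6, where 36 of the 47 members had an entry, and they read 5′ to 3′ on the strand of the gene. Capitals mark the ETS motif AGGAAGT and the TATA box TATAAA. They were searched together with the NF-kB consensus on both strands after the sequences had been seen. The windows are chr17:35202008-35202257 (Tnf, minus strand), chr4:145246871-145247120 (Tnfrsf1b, minus strand) and chr11:61126505-61126754 (Tnfrsf13b, plus strand).
Tnf: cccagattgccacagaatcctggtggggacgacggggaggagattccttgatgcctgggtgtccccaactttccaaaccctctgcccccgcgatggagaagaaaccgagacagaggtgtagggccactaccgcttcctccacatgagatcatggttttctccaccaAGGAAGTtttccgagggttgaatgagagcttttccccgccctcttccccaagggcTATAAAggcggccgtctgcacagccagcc
Tnfrsf1b: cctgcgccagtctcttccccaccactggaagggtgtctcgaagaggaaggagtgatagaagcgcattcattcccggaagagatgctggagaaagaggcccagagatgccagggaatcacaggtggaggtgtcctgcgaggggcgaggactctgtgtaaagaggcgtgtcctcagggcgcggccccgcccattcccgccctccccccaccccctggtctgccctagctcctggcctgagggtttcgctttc
Tnfrsf13b: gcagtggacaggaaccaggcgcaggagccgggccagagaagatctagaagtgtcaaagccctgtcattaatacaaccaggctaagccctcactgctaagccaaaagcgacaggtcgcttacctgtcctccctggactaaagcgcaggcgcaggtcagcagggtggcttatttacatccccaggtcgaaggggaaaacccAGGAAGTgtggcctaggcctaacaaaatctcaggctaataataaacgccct
In Tnf, AGGAAGT begins at base -84 and TATAAA at base -29 from the start of the gene. In Tnfrsf13b, AGGAAGT begins at base -51, and the window of Tnfrsf1b holds none of the motifs. AGGAAGT occurs in 7.69% of all 32851 promoter windows of this length and in 5 of the 36 members, and TATAAA in 12.4% and in 7 of 36. The NF-kB consensus occurs in 3.90% of all windows and in 3 of the 36 members (Ltb, Tnfrsf8 and Tnfrsf9). A match describes letters in the window and not a site in use, and the absence of a match says nothing of the factor.

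Leaving aside Edar, which is given with the ectodysplasin genes, 5 of the 6 death domain receptors in the list could be tested. None was called in limma, beside 3.53% of all tested genes in either direction. Of these receptors 1, Ngfr, had an unadjusted p under 0.05 (limma). It was called higher by DESeq2, beside 4.72% of its genes. Ngfr, a receptor for neurotrophins that is also present on melanocytes and nerve sheath cells, read 338, 354 and 226 normalized counts in control and 526, 757 and 904 in ILK-K5 libraries. All ILK-K5 libraries were above all controls, and the mean went from 306 ± 70.0 to 729 ± 191 (SD, n = 3). The log2 fold change was 1.24 (standard error 0.31, 95% interval 0.54 to 1.95), with an adjusted p of 0.0705 in limma, 0.0698 in edgeR and 0.0138 in DESeq2. In limma it was 0.0548 within replicates 2 and 3 and 0.0252 with the term for the description digits. Melanocyte markers summed to 69.9 to 149 in control and to 75.6 to 208 in ILK-K5 libraries, with overlap. None of the 3 that were tested was called in limma or edgeR. DESeq2 called 1 of them, and 1 had an unadjusted p under 0.05 (limma). As FPKM, Ngfr stood at 9.10 ± 2.08 in control and 21.7 ± 5.67 in ILK-K5 libraries (SD, n = 3).

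The receptors of the death ligands overlapped between genotypes. Fas read 72.4, 97.3 and 42.1 in control and 50.1, 67.9 and 42.9 in ILK-K5 libraries, and Fasl, its ligand, had 9 and 6 reads in sum. Tnfrsf10b, the receptor for Tnfsf10 (TRAIL), read 76.2, 28.9 and 107 in control and 84.2, 80.2 and 35.1 in ILK-K5 libraries. Tnfsf10 itself read 13.5, 3.04 and 13.8 in control and 30.7, 17.7 and 7.79 in ILK-K5 libraries. The means of Fas, Tnfrsf10b and Tnfsf10 differed by less than the larger of their SDs, and their adjusted p was 0.811 or above (limma). Tnfrsf21, a death domain receptor with no ligand in the family, read 83.9, 79.1 and 204 against 105, 187 and 135. The decoy receptors for TRAIL on chromosome 7 were likewise not called. Tnfrsf22 read 313, 234 and 283 in control and 222, 148 and 282 in ILK-K5 libraries, and its neighbour Tnfrsf23, at a distance of 16.1 kb, read 122, 50.2 and 55.9 against 125, 95.6 and 79.9. Tnfrsf26, the next gene of this cluster, had 3, 1 and 0 reads in control and 6, 14 and 15 in ILK-K5 libraries, a ratio of 8.40 with a counting interval of 3.002 to 32.5.

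Tnfrsf11a (RANK) and its soluble decoy Tnfrsf11b (osteoprotegerin), which bind the same ligand, were among the more abundant members, while their ligand Tnfsf11 had 6 reads in control and 2 in ILK-K5 libraries. Tnfrsf11a read 375, 216 and 126 in control and 622, 228 and 257 in ILK-K5 libraries (log2 fold change 0.61, 95% interval -0.50 to 1.72, limma adjusted p = 0.769). Tnfrsf11b read 392, 424 and 363 in control and 240, 384 and 279 in ILK-K5 libraries (-0.41, 95% interval -1.04 to 0.23, limma adjusted p = 0.707). ILK-K5 library 2 of Tnfrsf11b lay among the controls, and the genotypes overlapped for both genes. The FPKM ratio of decoy to receptor was 2.22, 4.17 and 6.10 in control and 0.821, 3.57 and 2.30 in ILK-K5 libraries (exact permutation p = 0.3, 0.533 adjusted over 4 ratios).

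Tnfrsf12a, the receptor for the repair cytokine Tnfsf12 (TWEAK), read 34.7, 44.1 and 110 in control and 59.2, 187 and 120 in ILK-K5 libraries. Control library 3 exceeded ILK-K5 library 1, and the log2 fold change was 0.98 (95% interval -0.30 to 2.26, limma adjusted p = 0.610). Tnfsf12 was below the level for testing, with 0, 1 and 1 reads in control and 7, 17 and 10 in ILK-K5 libraries. This is a ratio of 16.3 with a counting interval of 4.18 to 140, and 48.3% of the exon bases are shared with Tnfsfm13. Tnfrsf19, a receptor with no ligand assigned here, scattered widely in control libraries, with 46.3, 179 and 403 normalized counts against 100, 150 and 122 in ILK-K5 libraries.

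The co-stimulatory ligands and receptors, known best from T cells and antigen-presenting cells, were mixed. Tnfrsf18 (GITR) was the family gene with the highest FPKM in control bulge SCs, at 20.5 ± 3.76 against 14.01 ± 2.11 in ILK-K5 (SD, n = 3). Its normalized counts were 243, 319 and 352 in control and 204, 241 and 179 in ILK-K5 libraries. The ILK-K5 libraries all lay below the controls, although ILK-K5 library 2 was close to control library 1 (log2 fold change -0.54, 95% interval -1.20 to 0.11, limma adjusted p = 0.553). Of its exon bases, 27.2% are shared with the antisense gene Gm16008, whose reads an unstranded count cannot tell apart. Tnfrsf4, at a distance of 9.55 kb from Tnfrsf18, read 41.5, 73.0 and 96.5 in control and 45.5, 105 and 67.2 in ILK-K5 libraries (0.04, 95% interval -1.04 to 1.13). T cell markers summed to 132 to 197 normalized counts in control and 329 to 377 in ILK-K5 libraries, and 2 of the 6 tested were called higher (limma). The ligands of these receptors stayed low, at 37 and 20 reads for Tnfsf18 and at 5 and 11 for Tnfsf4, in control and ILK-K5 libraries respectively.

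Cd40, a receptor through which T cells activate antigen-presenting cells, read 79.1, 41.1 and 29.0 in control and 96.8, 86.4 and 87.7 in ILK-K5 libraries. The ILK-K5 libraries were close together and above the controls, with a log2 fold change of 0.97 (95% interval -0.05 to 1.99, limma adjusted p = 0.448). Its ligand Cd40lg had no read in any library, which allows up to 3 reads per library, or 2.18 to 4.56 normalized counts. Tnfsf9, a ligand made by antigen-presenting cells, read 11.6, 6.08 and 6.53 in control and 31.9, 15.4 and 16.6 in ILK-K5 libraries, again without overlap (1.27, 95% interval -0.20 to 2.75, limma adjusted p = 0.523). Its receptor Tnfrsf9 was below the level for testing, with 6, 0 and 6 reads in control and 11, 18 and 20 in ILK-K5 libraries, a ratio of 3.92 (counting interval 2.05 to 8.09). Langerhans and dendritic cell markers (Cd207, Itgax, Flt3, Zbtb46, Cd74 and H2-Ab1) summed to 80.1 to 687 normalized counts in control and 16646 to 31390 in ILK-K5 libraries. Of these 6, 3 were called higher (limma), and 4 had all ILK-K5 libraries above all controls. Such a sum is weighted by its most abundant genes. Tnfsf8 was among the least abundant ligands in control libraries, with 0, 1 and 2 reads against 12, 15 and 16 in ILK-K5 libraries, a ratio of 13.8 (counting interval 4.402 to 69.3). Its receptor Tnfrsf8 had 1 read in control and 2 in ILK-K5 libraries. Tnfsf15, at a distance of 86.2 kb from Tnfsf8, read 43.4, 19.8 and 12.3 in control and 19.4, 10.8 and 13.6 in ILK-K5 libraries (-0.60, limma adjusted p = 0.840). Its receptor Tnfrsf25 had 2, 2 and 6 reads against 15, 8 and 6, so that control library 3 and ILK-K5 library 3 held the same number of reads.

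**Figure D3:**
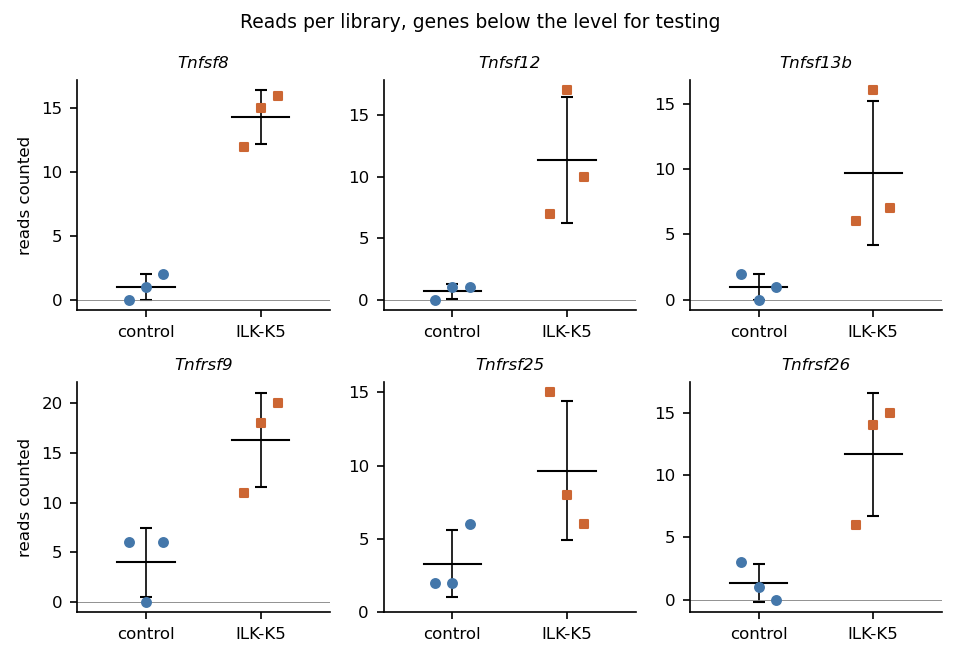
Reads per library (points) with the mean and SD (lines) for 6 genes, control as circles and ILK-K5 as squares. They are the genes below the level for testing whose normalized counts do not overlap between genotypes. The control libraries hold 0 to 6 reads and the ILK-K5 libraries 6 to 20.

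These 6 genes, Tnfsf8, Tnfsf12, Tnfsf13b, Tnfrsf9, Tnfrsf25 and Tnfrsf26, were singled out after their values were seen. When limma was run without a filter on low counts, their adjusted p lay between 0.169 (Tnfsf8) and 0.835 (Tnfrsf25), and none was called. Counted over the whole family, 12 of 47 genes had all ILK-K5 libraries above all controls in normalized counts, and 2, Eda and Tnfrsf18, had them below. Over all 34213 genes with a read, 6.88% lay above and 5.25% below in this way. Among tested genes, these were 6 and 2 of the 25 members, beside 10.9% and 6.95% of all. Of the 6, Tnf, Tnfsf9, Tnfrsf1b and Tnfrsf13b passed the level for testing only through the ILK-K5 libraries, which leaves Cd40 and Ngfr. The 6 therefore do not measure an excess in the family. A further 8 members (Cd40lg, Cd70, Lta, Ltb, Tnfrsf17, Tnfrsf8, Tnfsf13 and Tnfsf14) had at most 3 reads in every library. The remaining members below the level for testing overlapped between genotypes, and of those not yet given, Cd27 had 7 reads in control and 13 in ILK-K5 libraries, Tnfrsf14 had 1 and 5, and Tnfsf13os had 4 and 6.

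Of the 4 ectodysplasin genes, Eda, Edaradd and Eda2r had lower means in ILK-K5 than in the controls, and none passed the test. Eda was the most abundant ligand of the family in control bulge SCs, at 3.83 ± 0.613 FPKM (SD, n = 3). Its normalized counts were 301, 224 and 240 in control and 161, 144 and 210 in ILK-K5 libraries. The genotypes did not overlap, but ILK-K5 library 3 came near control library 2 (log2 fold change -0.57, 95% interval -1.25 to 0.10, limma adjusted p = 0.533). Edaradd, the adaptor that binds Edar, read 303, 432 and 714 in control and 253, 376 and 403 in ILK-K5 libraries (-0.43, 95% interval -1.25 to 0.39, limma adjusted p = 0.782). Edar itself had only 6 reads in control and 9 in ILK-K5 libraries, so that a difference was not detectable at this depth. Eda2r, the receptor for the shorter splice form of Eda, read 0, 39.5 and 26.1 in control and 7.97, 14.7 and 24.4 in ILK-K5 libraries. The mean of Eda2r was lower in ILK-K5, whereas its log2 fold change was 0.57 in limma. With control library 1, which was at 0, left out, the log2 fold change was -1.12 (limma), and in DESeq2 it was -0.49.

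Ranked by mean FPKM (± SD, n = 3), the family in control libraries was led by Tnfrsf18 (20.5 ± 3.76), Tnfrsf1a (15.6 ± 7.67), Tnfrsf11b (14.3 ± 1.12) and Ngfr (9.10 ± 2.08). Ranks between genes depend on the length that the authors took for each gene, which is not given in the sources used here. The means of Tnfrsf18, Tnfrsf1a and Tnfrsf11b differed by less than the SD of Tnfrsf1a. In ILK-K5 libraries the order was Tnfrsf1a (22.9 ± 9.96), Ngfr (21.7 ± 5.67) and Tnfrsf18 (14.01 ± 2.11). Next came Tnfrsf12a (13.0 ± 6.83), Tnfrsf11b (11.0 ± 2.71) and Tnfrsf1b (7.94 ± 1.09). Tnfrsf1a and Ngfr differed by less than the SD of either. Neighbours among Tnfrsf18, Tnfrsf12a and Tnfrsf11b differed by less than the larger SD of each pair, whereas the steps from Ngfr to Tnfrsf18 and from Tnfrsf11b to Tnfrsf1b exceeded the larger SD. Tnfrsf1b moved from rank 24 of 47 in control, at 0.196 ± 0.101 FPKM, to rank 6 in ILK-K5. Among ligands, Tnf (2.88 ± 1.39) and Eda (2.58 ± 0.518) stood side by side in ILK-K5, whereas Tnf was at 0.156 ± 0.232 in control. A mean of at least 1 FPKM was found for 18 members in control and for 21 in ILK-K5 libraries. Ligands made up 1 of the 18 in control (Eda) and 3 of the 21 in ILK-K5 (Eda, Tnf and Tnfsf9).

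**Figure D4:**
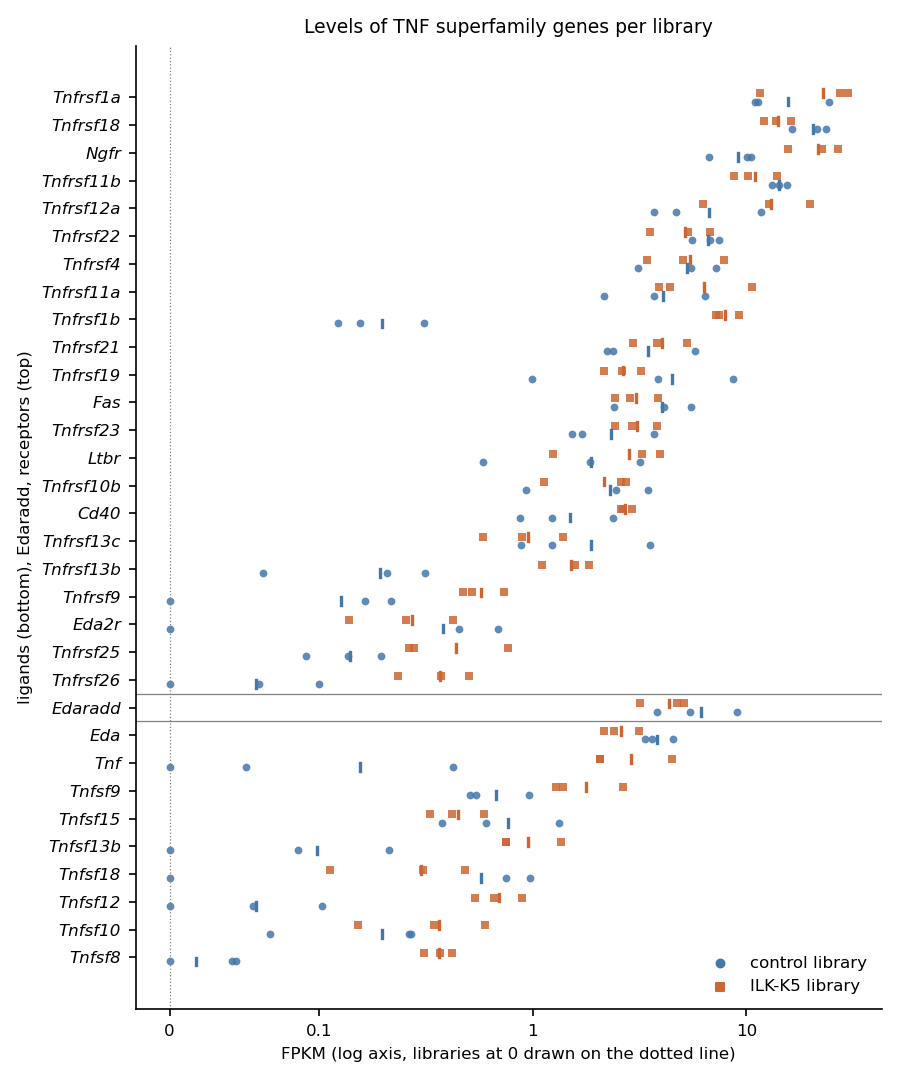
FPKM per library on a log axis for the members with a mean of at least 0.3 FPKM in either genotype, control as circles and ILK-K5 as squares, with ticks at the means and libraries at 0 drawn on the dotted line. Tnfrsf1b and Tnf are the members with the largest ratios of means, with means of 0.196 against 7.94 and 0.156 against 2.88 FPKM, while most other receptors overlap.

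Signalling genes downstream of the receptors were examined in a list of 57 genes, all of which were tested. The list also holds 4 genes of shedding, which do not act downstream of a receptor and all had a positive log2 fold change. At the adjusted threshold in limma, 3 were higher in ILK-K5, beside 2.93% of all tested genes, and none was lower, beside 0.599%, with 10 higher and 2 lower at an unadjusted p under 0.05. edgeR called 3 higher (2.58% of all genes) and DESeq2 5 (4.72%), and neither called any lower. The median log2 fold change was 0.33, with 42 genes positive and 15 negative, where all 16368 tested genes had a median of 0.0054 and 8265 were positive. Traf1, an adaptor of Tnfrsf1b and related receptors, read 33.8, 39.5 and 64.6 in control and 154, 162 and 166 in ILK-K5 libraries. The ILK-K5 libraries were nearly equal and all above the controls (log2 fold change 1.84, standard error 0.38, limma adjusted p = 0.0310). Nfkbie, an inhibitor that holds NF-kB in the cytoplasm, read 31.8, 7.60 and 24.7 in control and 207, 132 and 111 in ILK-K5 libraries (2.91, standard error 0.57, limma adjusted p = 0.0246). Tifa, an adaptor that binds Traf6, had 0, 0 and 3 reads in control and 28, 63 and 25 in ILK-K5 libraries, a ratio of 37.1 with a counting interval of 12.4 to 183 (limma adjusted p = 0.0191). The controls of Tifa were thus at the limit of counting, and its fitted log2 fold change of 4.56 depends on the pseudocount.

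These calls depended on single libraries (limma). None of the 3 was called without control library 2 or without any single ILK-K5 library. Without control library 1, 2 (Nfkbie and Tifa) were called, and 7 genes of the list were called without control library 3. The share of all genes called was not computed for these fits. Within replicates 2 and 3 only Nfkbie was called (limma adjusted p = 0.0496). Just above the threshold, Mlkl, the executor of necroptosis, had 0, 0 and 3 reads in control and 33, 27 and 14 in ILK-K5 libraries (limma adjusted p = 0.0511). Tnfaip3, the feedback inhibitor A20, read 237, 266 and 621 in control and 904, 813 and 1060 in ILK-K5 libraries (1.43, limma adjusted p = 0.0854). DESeq2 called both. Nfkbia, a further inhibitor of NF-kB, read 1388, 1099 and 816 in control and 1046, 1262 and 1076 in ILK-K5 libraries. The genotypes overlapped for Nfkbia (log2 fold change 0.06, limma adjusted p = 0.968). Adam17, which sheds Tnf from the cell surface, read 1034, 991 and 730 in control and 981, 1062 and 981 in ILK-K5 libraries (0.15, limma adjusted p = 0.909). Mlkl, Tnfaip3, Nfkbia and Adam17 were named after their values were seen.

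**Figure D5:**
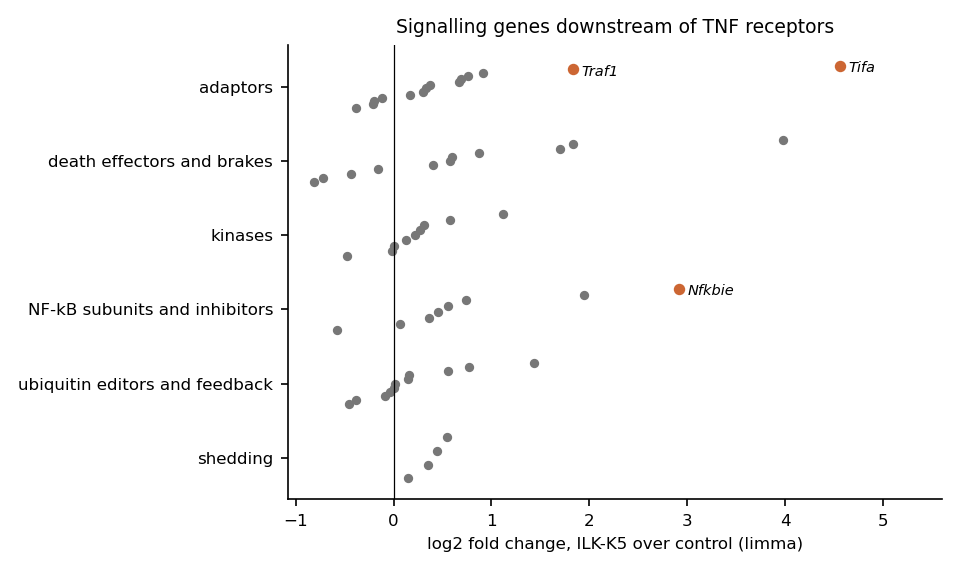
Log2 fold change, ILK-K5 over control (limma), of the 57 listed genes of signalling and shedding by role, each point a gene. Traf1, Nfkbie and Tifa, in orange, have an adjusted p of at most 0.05, and 42 of the 57 points lie above 0.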

How the data were processed

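RNA-seq of control and ILK-K5 bulge SCs was used, with 3 libraries per genotype. According to the study's methods, cDNA was amplified with the Ovation kit and made into libraries with Nextera XT, which does not mark strand. Per the labels' processing notes, TopHat2 2.0.14, Bowtie2 2.2.4 and DESeq2 1.6.3 were used with GRCm38, and the counting program is not given in the sources used here. The normalized counts (signal) were deposited by the authors, and all values (100%, tolerance 1e-06) were whole reads divided by a size factor per library, from which reads were recovered. The FPKM values deposited by the authors equal these counts times a constant per gene. The authors' tables of their own comparison hold fold changes, standard errors, Wald statistics and p-values and were not used. Of the 43274 identifiers, 42107 (97.3%) had a symbol in GENCODE M21, from which coordinates were taken.

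Genotypes were compared with limma 3.58.1 in R 4.3.3 (trended empirical Bayes, two-sided) on log2 of the normalized count plus 1, for genes with a mean of at least 10, without a block, and called at an adjusted p of at most 0.05. Recovered reads were also tested with edgeR 4.0.16 (quasi-likelihood) and DESeq2 1.42.0. Intervals of read ratios are exact binomial at 95%. Tables and plots were made in Python 3.11.15 with pandas 2.3.3, scipy 1.17.1 and matplotlib 3.10.9. The fit was also run on simulated counts with the same dispersion for all genes. That run does not cover the differing spread of the genes here, and its outcome is not used. Members, lists and alternatives were chosen with earlier results of these data known. Values in every library are given for members called by any tool, tested members without overlap, the 5 ligands and 10 receptors with the highest FPKM, ectodysplasin genes, called signalling genes and partners of these, and the remaining members are given by values or counts.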

Additional observations from a re-analysis of the deposited data

How the results depend on the processing

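Against 2 members called higher, 1 was called with a pseudocount of 0.1, with a filter at a mean of 50 and in edgeR. With a pseudocount of 5 and with FPKM, 3 were called. DESeq2, the replicate block and a term for the description digits called 4 each, and fits with a library left out called 1 to 2. Tnfrsf1b was among them throughout. Against 3 signalling genes, 5 were called in DESeq2, 7 with the replicate block and 7 with the term. Within replicates 2 and 3, 1 was called, and 0 to 7 were called with a library left out. Apart from the main fit, edgeR and DESeq2, the share of all genes called was not computed. No member or signalling gene was called lower in any setting. Against 14 members without overlap, 24 were without overlap within replicates 2 and 3 and 16 to 22 with a library left out. Groups of fewer libraries overlap less often even where nothing differs, and the share over all genes was not computed for these settings. edgeR and DESeq2 give no such count. The median log2 fold change of 0.49 was 0.31 with a pseudocount of 5, 0.18 with that filter, 0.19 with quantile normalization, 0.31 with FPKM, 0.20 in edgeR, 0.19 in DESeq2, 0.16 within replicates 2 and 3, and 0.12 to 0.53 with a library left out. Eda2r (0.57) turned to -0.46 in edgeR, -0.49 in DESeq2 and -0.73 within replicates 2 and 3, and ranged from -1.12 (without control library 1) to 1.55 with a library left out. Tnfrsf4 (0.04) turned to -0.076 with quantile normalization and ranged from -0.29 to 0.33 with a library left out, being negative when control library 1 or ILK-K5 library 2 was missing. The cause of these changes was not tested. Of the 18 tested members that the naming rule selects, the other 16 kept their direction in every setting.

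Replicate numbers and the digits of the sample descriptions match between genotypes, and no label says that they mark a litter, batch or day. Deviations from the group means correlated at 0.529, 0.0198 and 0.307 for numbers 1 to 3. Control libraries 2 and 3 and ILK-K5 library 2 each correlated best with another number, control library 3 with ILK-K5 library 2 at 0.498. The replicate block added Tnfrsf13b (limma adjusted p = 0.0276) and Ngfr (0.0257) to the calls. Where a left-out library leaves 2 in a genotype, the spread is pooled over both. Depth limits the 8 members with at most 3 reads in every library.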
